A study of Mus musculus with 6 samples.

Results

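The cytosolic ribosomal protein genes were followed in ovarian RNA from mice of high and of low litter size. They were taken as every protein-coding gene of the deposited table whose symbol starts with Rpl or Rps followed by a digit, together with Rplp0, Rplp1, Rplp2 and Rpsa, leaving out pseudogene symbols and the S6 kinase genes. The rule gave 86 of the 36727 genes of the table. Of these, 77 encode standard ribosomal proteins, 46 of the large and 31 of the small subunit. Another 8 are paralogs of such genes (Rpl10l, Rpl22l1, Rpl36al, Rpl39l, Rpl3l, Rpl7l1, Rps27l and Rps27rt). The remaining gene, Rps19bp1, encodes a binding partner of Rps19 and is not a ribosomal protein, although its symbol meets the rule. The rule misses ribosomal protein genes with other names, of which Fau and Rack1 are given separately.

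The study compared ovaries of female F4 inbred Swiss albino mice whose litter size the labels give as high or as low. The tissue is labelled as phased to estrus, and the females were adults of 135 to 140 days. Poly(A)-selected RNA of 3 high litter size samples (replicates 1, 3 and 4) and 3 low litter size samples (replicates 1, 2 and 5) was sequenced, called high 1, high 3, high 4, low 1, low 2 and low 5 here. No treatment or allele is named, and the strain, sex, age and tissue are shared by all 6 samples. Whether a sample is a single animal or a pool is not labelled, and p-values here reflect only the scatter among these 6 samples, which could be technical.

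A ribosome has a large and a small subunit, each built from ribosomal RNA and a fixed set of proteins that are mostly present in a single copy, so the genes for these proteins are transcribed at high and broadly similar levels in nearly every cell. Their mRNAs begin with a tract of pyrimidines, the terminal oligopyrimidine or TOP motif, through which the kinase mTOR, acting through the RNA-binding protein Larp1, controls how much of the mRNA is translated. In the ovary, ribosomes made by the growing oocyte are stored for the early embryo, and granulosa and luteal cells make large amounts of protein during follicle growth and after ovulation. Mammalian genomes also carry very many processed pseudogenes of ribosomal protein genes, copies that arose by reverse transcription of the mRNA.

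Total estimated counts ran from 17620903 to 24758222 per library. The libraries differed in tissue markers, in both litter size groups. The summed level of 9 theca and luteal genes was 47.5, 75.9 and 46.1 CPM (counts relative to the library total after TMM scaling) in high 1, high 3 and low 2, against 10372, 790 and 3563 CPM in high 4, low 1 and low 5. The oocyte transcription factor genes Figla and Nobox were at 0 in high 1, high 3 and low 2. Inha, which granulosa cells express as a subunit of inhibin, was at 1.64, 2.12 and 1.23 CPM in these 3 libraries and between 109.8 and 199 CPM in the others. The sum of 10 granulosa genes was 119 and 98.1 CPM in high 1 and high 3 and from 634 to 1277 CPM in the other 4, low 2 included at 689 CPM. Their median, as log2(CPM + 1) minus each gene's mean, was -1.18, -1.59 and -0.97 in high 1, high 3 and low 2. In high 4, low 1 and low 5 it was 1.18, 1.16 and 1.13, so the sum in low 2 does not describe most of these genes. The summed level of 13 oocyte genes was 6.44, 7.12 and 8.32 CPM in high 1, high 3 and low 2 and 92.7, 22.1 and 59.4 CPM in high 4, low 1 and low 5. Thus oocyte, theca and luteal markers were low in high 1, high 3 and low 2 in spite of the tissue label, although most were not at 0. The granulosa median was low in these libraries too, though the granulosa sum was not low in low 2. The summed level of 13 adipocyte genes was 31761 CPM in high 3 and from 545 to 4787 CPM in the other 5 libraries, and 9 smooth muscle genes summed to 3570 CPM in high 3 and to between 5866 and 17077 CPM elsewhere. In such bulk samples, fewer cells of a type and less RNA per cell cannot be told apart.

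For some ribosomal protein genes, the counts cannot be read without those of their copies. A gene of the table was taken as a sequence copy of a member where its transcript matched the member's coding sequence at 95% identity or more over at least 80% of its length. Other members were left out of the copies, so a paralog and its parent gene were never summed. There were 572 such copies of 78 members, of which 556 are annotated as pseudogenes and 16 as protein-coding, and 422 had at least 1 count. Over all libraries the copies held 13.3% of the counts of members and copies together, from 11.6% in high 3 to 14.5% in low 1. That share was 12.5 ± 0.915% in the high and 13.8 ± 0.597% in the low group (SD, n = 3, p = 0.2 by an exact two-sided permutation test whose lowest attainable value is 0.1). Most members kept their counts, since 65 of 86 held at least 95% of the total with their copies. Another 14 held between 50 and 95%, and 7 held less than 50%. The submitters' processing notes name kallisto, which matches reads to transcripts by short words. Of the 31-base words of a member's coding sequence, 31 being the usual word length of kallisto, a median of 96.4% also occurred in a transcript of another gene, and in 33 members every word did. The authors' own word length is not named in the labels or notes.

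The first 4 pairs printed next are examples in which the split of counts between a member and its copy differed from library to library, and in the last pair nearly all counts sat on the copy. They show how few letters separate them. Each is a 60-base stretch of the coding sequence from the GENCODE M21 transcripts (GRCm38), with the letters that differ within the stretch in capitals. Positions are counted from 1 at the A of the start codon of the member, and the member's letter comes first in each substitution. These pairs were chosen after their counts were seen.

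Rps2, a protein at the mRNA entry channel of the small subunit (ENSMUSG00000044533, chr17:24718116-24721929, plus strand), and its processed pseudogene Rps2-ps13 (chrX:52898588-52899469, plus strand) differ at 7 of 882 coding bases. Coding bases 42 to 101 hold T60A and A84G.
Rps2: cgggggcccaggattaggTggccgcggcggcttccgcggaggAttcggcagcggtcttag
Rps2-ps13: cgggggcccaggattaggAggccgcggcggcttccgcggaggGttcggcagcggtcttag

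Rps3a1, a small-subunit protein that takes part in translation initiation (ENSMUSG00000028081, chr3:86137940-86142702, minus strand), and the processed pseudogene Rps3a2 (chr14:88123017-88123808, minus strand) differ at 4 of 792 aligned coding bases. Coding bases 626 to 685 hold A645T and T668C.
Rps3a1: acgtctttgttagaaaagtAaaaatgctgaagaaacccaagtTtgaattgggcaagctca
Rps3a2: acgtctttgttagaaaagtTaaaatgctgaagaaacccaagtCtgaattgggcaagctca

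Rpsa, a small-subunit protein also known as the laminin receptor (ENSMUSG00000032518, chr9:120127689-120132369, plus strand), and Rpsa-ps10 (chr3:150072658-150073542, minus strand) differ at 6 of 885 aligned coding bases. Coding bases 184 to 243 hold T210C and C219T.
Rpsa: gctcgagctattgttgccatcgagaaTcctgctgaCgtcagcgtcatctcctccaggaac
Rpsa-ps10: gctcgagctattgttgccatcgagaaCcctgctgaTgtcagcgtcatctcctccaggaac

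Rpl34, a large-subunit protein (ENSMUSG00000062006, chr3:130726831-130730398, minus strand), and Rpl34-ps1 (chr6:71124610-71124963, plus strand) differ at 2 of 354 coding bases. Coding bases 102 to 161 hold T132C.
Rpl34: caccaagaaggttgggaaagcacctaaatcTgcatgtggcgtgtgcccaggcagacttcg
Rpl34-ps1: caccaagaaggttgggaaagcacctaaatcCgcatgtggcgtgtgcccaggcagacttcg

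Rps18, a protein of the head of the small subunit (ENSMUSG00000008668, chr17:33951999-33956001, minus strand), and Gm10260 (chr13:97760072-97760632, minus strand), which the annotation calls protein-coding, differ at 4 of 459 coding bases. Coding bases 324 to 383 hold A337C and G371A.
Rps18: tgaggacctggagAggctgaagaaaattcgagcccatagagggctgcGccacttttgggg
Gm10260: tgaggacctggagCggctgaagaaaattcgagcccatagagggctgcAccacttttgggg

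For the first 4 pairs the share of counts on the member differed widely between libraries. Rps2 had 10064, 11879 and 9852 counts in high 1, high 3 and high 4 and 23, 14125 and 117 in low 1, low 2 and low 5. Its copy Rps2-ps13 had 6389 counts in low 1 and at most 7 in any other library. A further copy, Rps2-ps10 (chromosome 18), had 27499 counts in low 5, 9336 in high 1 and from 25 to 393 in the other 4. In low 1 and low 5, where Rps2 was nearly absent, a copy thus carried the counts, and Rps2 held 0.337% and 0.422% of the total with its copies there, against 99.4% in high 3, 98.3% in high 4, 99.5% in low 2 and 51.7% in high 1. Summed with all 23 copies, Rps2 stood at 995, 745 and 503 CPM in the high and 394, 757 and 1081 CPM in low 1, low 2 and low 5. The widest ratio of 2 libraries of the same group fell from 567-fold on the Rps2 row to 2.74-fold on the sum.

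Rps3a1 had a like uneven split, in other libraries. It had 19797, 1441 and 16707 counts in high 1, high 3 and high 4 and 2551, 20845 and 35808 in low 1, low 2 and low 5. Rps3a2 had 5092 counts in high 3 and 6724 in low 1, the libraries where Rps3a1 was lowest, and 22 in low 5 and 16 in low 2. Rps3a1 held 20.9% of its total in high 3 and 25.4% in low 1, and from 86.7 to 99.8% in the other 4. On the sum with copies the widest ratio within a group was 2.71-fold, against 11.2-fold on the row of Rps3a1 alone.

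Rpl34 had 643, 3427 and 560 counts in high 1, high 3 and high 4 and 570, 539 and 1008 in low 1, low 2 and low 5. Rpl34-ps1 had 1975, 11 and 1884 counts in the high and 965, 1233 and 2606 in the low libraries. High 3 was thus the only library in which the Rpl34 row led and its copy was almost empty. Rpsa held 46.2, 67.6 and 99.3% of its total in the high and 42.0, 33.8 and 63.8% in the low libraries, most of the rest being on Rpsa-ps10, which had 83 counts in high 4 and from 3269 to 12395 elsewhere. Rps26 held 51.1% in low 2, where Rps26-ps1 had 1471 counts, and all of it in low 1, where Rps26-ps1 had 0.

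Another set of members held a minor share of their total in every library. Rps18 held from 1.72% in high 4 to 5.88% in low 1, and Gm10260 had 12571, 4277 and 7448 counts in the high and 7419, 7505 and 18031 in the low libraries. Rpl5, which with Rpl11 and the 5S RNA forms a particle that binds Mdm2, held 4.04% over all libraries, and Gm15500, whose transcript holds the coding sequence of Rpl5 letter for letter, had 89318 counts in all. Rpl12 held 4.37%, with Gm10275, Rpl29 5.39%, with Gm13841 and Gm8210, Rpl3 12.4%, with Rpl3-ps1, and Rps7 19.3%, with Gm6472. Gm13841 and Gm8210 had identical counts in all 6 libraries. For these 6 members the row under the gene's own symbol describes a small part of the counts that could belong to it. Among the 81 members of at least 10 CPM on average, 6 had a ratio over 3-fold between 2 libraries of a group (Rps2, Rps3a1, Rpl34, Rps26, Rps24 and Rpl21). On sums with copies 1 did, Rps24, at 3.64-fold.

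**Figure D1:**
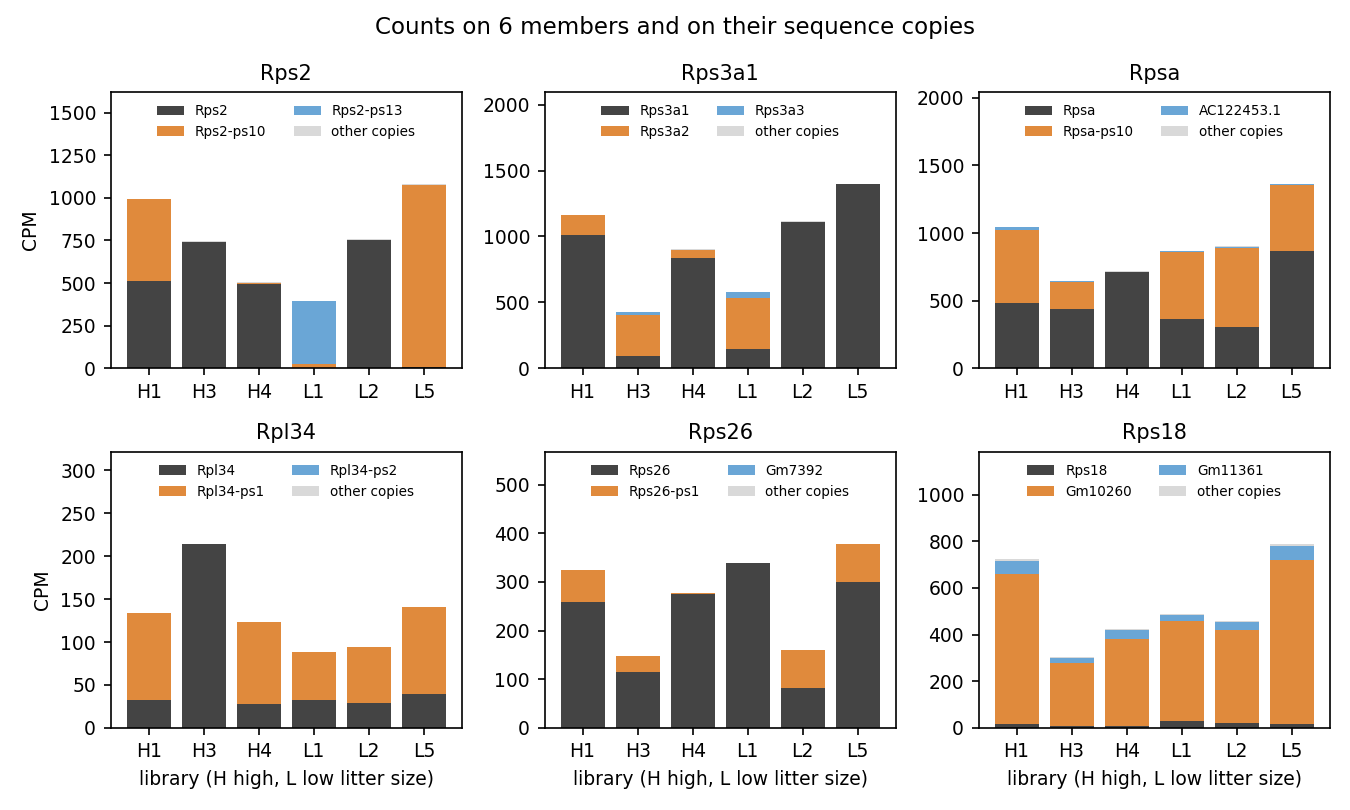
Stacked bars of CPM for Rps2, Rps3a1, Rpsa, Rpl34, Rps26 and Rps18 (dark) and their sequence copies (orange and blue for the 2 largest, light grey for the rest) in the 6 libraries, H for high and L for low litter size. The dark part of Rps2 is nearly missing in low 1 and low 5, where Rps2-ps13 and Rps2-ps10 stand in its place, and Rps18 is a thin strip under Gm10260 in all 6 libraries.

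Ribosomal protein genes took 4.43, 1.84 and 3.07% of all counts in high 1, high 3 and high 4, and 2.85, 3.03 and 4.62% in low 1, low 2 and low 5. High 1 and low 5 were the highest and high 3 the lowest, so each group held a library near the top. The means were 3.11 ± 1.30% in the high and 3.50 ± 0.973% in the low group (SD, n = 3), a difference of -0.39 percentage points that was smaller than the spread within either group (exact two-sided permutation p = 0.8). The difference turned to 0.247 without high 3 and to 0.169 without low 5. With the copies added the shares were 5.11, 2.08 and 3.51% against 3.33, 3.51 and 5.33% (p = 0.6 by the same exact test).

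**Figure D2:**
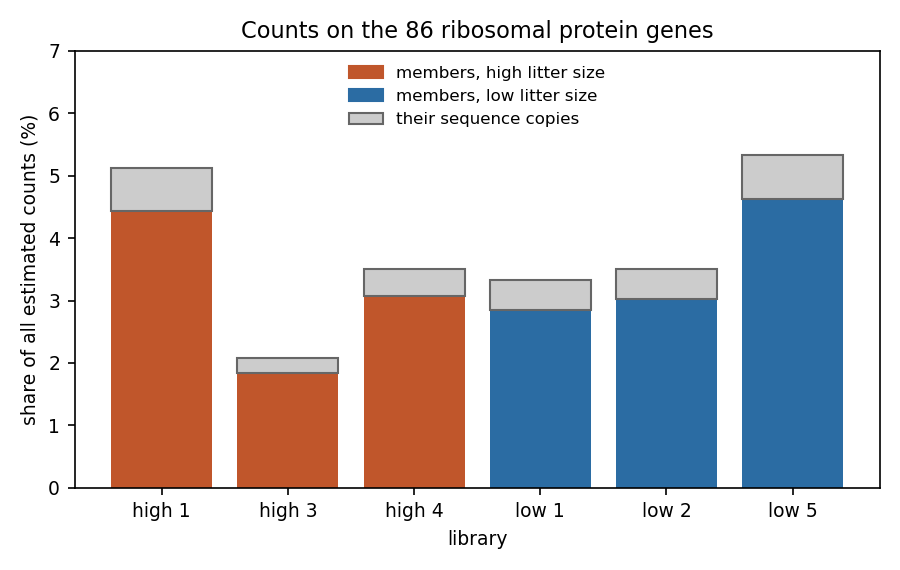
Share of all estimated counts on the 86 genes (coloured bars, orange for high and blue for low litter size) with the share on their sequence copies stacked above (grey), in percent, for each of the 6 libraries. The coloured bars run from 1.84% in high 3 to 4.62% in low 5, and both groups hold bars over 3%.

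The 2 subunits kept a nearly fixed balance. The log2 ratio of summed large-subunit to small-subunit counts was 0.50, 0.49 and 0.36 in high 1, high 3 and high 4 and 0.58, 0.51 and 0.46 in low 1, low 2 and low 5. The groups overlapped, and their means of 0.45 ± 0.08 and 0.52 ± 0.06 (SD, n = 3) were not separated by the exact two-sided permutation test (p = 0.4). With copies included the ratio was 0.51 in all 3 high libraries, against 0.56, 0.59 and 0.45 in low 1, low 2 and low 5 (p = 0.7, exact). Without copies, the log2 ratio spanned 0.36 to 0.58 over the 6 libraries. The share of counts on these genes moved 2.52-fold, which is a linear measure and not on the same scale. How far the ratio moves for other splits of genes was not computed.

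Per library, the median of the 84 tested members, as log2(CPM + 1) minus each gene's mean over the 6 libraries, was 0.35, -0.52 and -0.21 in the high and -0.04, -0.02 and 0.49 in the low libraries, while that of all tested genes stayed between -0.04 and -0.02. High 3 was the lowest library for 56 of 84 members, against 22.8% of all tested genes, and low 5 was the highest for 60. High 1 was the highest for 13 and high 4 for 0. For the highest library, the share over all genes was not computed. High 3 is also the library with the highest adipocyte sum (31761 CPM) and the lowest smooth muscle sum (3570 CPM). All 12 adipocyte genes tested had positive and all 9 smooth muscle genes negative log2 fold changes, high minus low, and their part in the ribosomal protein values was not tested. High 1, in which ovarian markers were also low, had the second highest ribosomal protein share. It differed from high 3 in other markers, with an adipocyte sum of 4372 CPM and a smooth muscle sum of 11364 CPM. The part of the ovarian markers in the ribosomal protein values was not tested either.

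**Figure D3:**
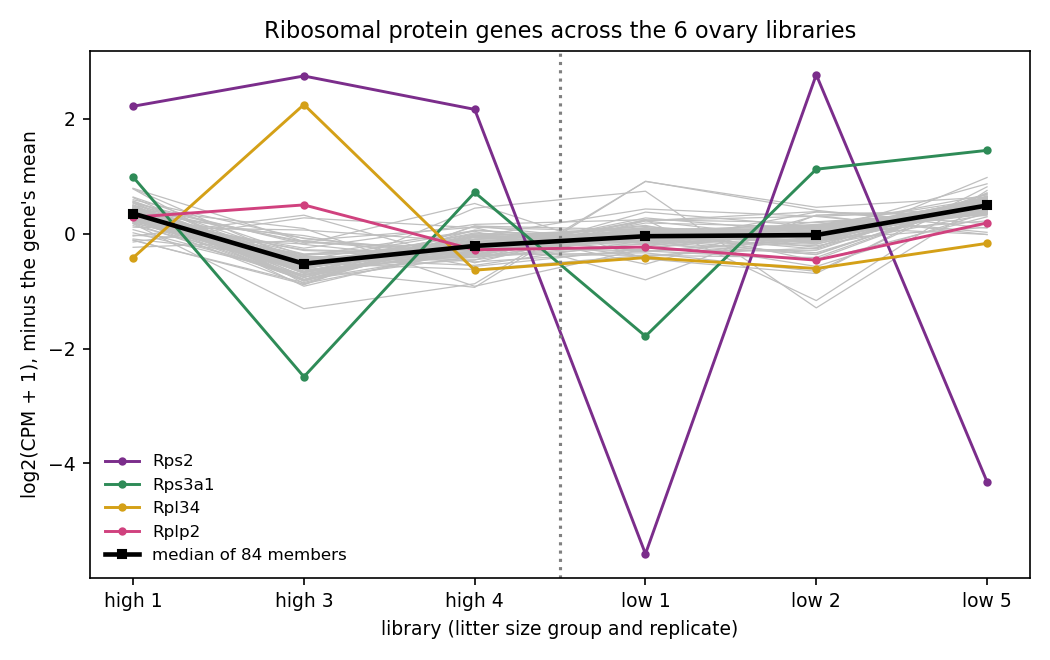
Each grey line is 1 of the 84 tested genes as log2(CPM + 1) minus its mean over the 6 libraries, joined across libraries to follow a gene (the order has no meaning), with the median in black and 4 genes in colour. The median is lowest in high 3 (-0.52) and highest in low 5 (0.49), and Rps2, Rps3a1, Rpl34 and Rplp2 leave it.

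Most members shared this pattern. Pearson's r of a member's centred values with the median of the other members over the 6 libraries had a median of 0.92, and 49 of 84 members were over 0.9. The points share their libraries, so these values are descriptions. Rpl23a followed the median closely (r = 0.997). Rpl34 (r = -0.60), Rps2 (-0.43), Rpl39l (-0.36), Rps19bp1 (-0.05), Rplp2 (0.01), Rps27l (0.21) and Rpl7l1 (0.37) followed it least. Of those 7, Rps19bp1 is no ribosomal protein and Rpl39l, Rps27l and Rpl7l1 are paralogs. Rpsa went from 0.38 to 0.96 and Rps18 from 0.45 to 0.995 when summed with their copies, and Rps2 from -0.43 to 0.56. Rplp2 stayed at 0.02 and Rpl34 at -0.28 on sums.

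Set against litter size, the trait that the study's design text ties to fitness, no ribosomal protein gene passed the test. With edgeR's quasi-likelihood test and Benjamini-Hochberg adjustment over all 16455 genes tested, 0 of 84 members had an adjusted p under 0.05, where 0.00608% of all genes did. By other tools the count over members was also 0, where DESeq2 called 6.18% of all genes, limma voom 0.0182% and edgeR's likelihood ratio test 3.83%. At an unadjusted p under 0.05, edgeR gave 3 members lower in the high group (Rpl36al, Rps7 and Rps18), where 7.82% of all genes were lower, and 0 higher, where 6.56% were. DESeq2 gave the same numbers, 3 and 0 (8.99% and 9% of all genes). Limma voom gave 4 lower and 1 higher (7.89% and 4.75% of all genes), and the likelihood ratio test 1 and 0 (7.4% and 7.61%). With edgeR the members' shares past the unadjusted threshold were thus below those of all genes in both directions.

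The fitted differences were small and mostly of the same sign. Of 84 members, 74 had a negative log2 fold change, high minus low, against 44.7% of all genes tested, and 10 a positive, though with libraries scaled to the members' own sum 49 were negative and 35 positive, a scaling that moves the median of all genes from 0.07 to 0.32. The median over members was -0.23 (quartiles -0.32 and -0.14), against 0.07 over all genes. The absolute value was under 0.5 in 75 members and under the member's own SE in 67. The large subunit had a median of -0.25 (42 of 46 negative) and the small subunit -0.19 (26 of 31 negative). The members rest on the same 6 libraries and move together, so their common sign is not 84 separate observations. Without high 3 the median was -0.06 with 53 negative, and without low 5 it was -0.03 with 48 negative. Without high 1 it was -0.51 with 79 negative.

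**Figure D4:**
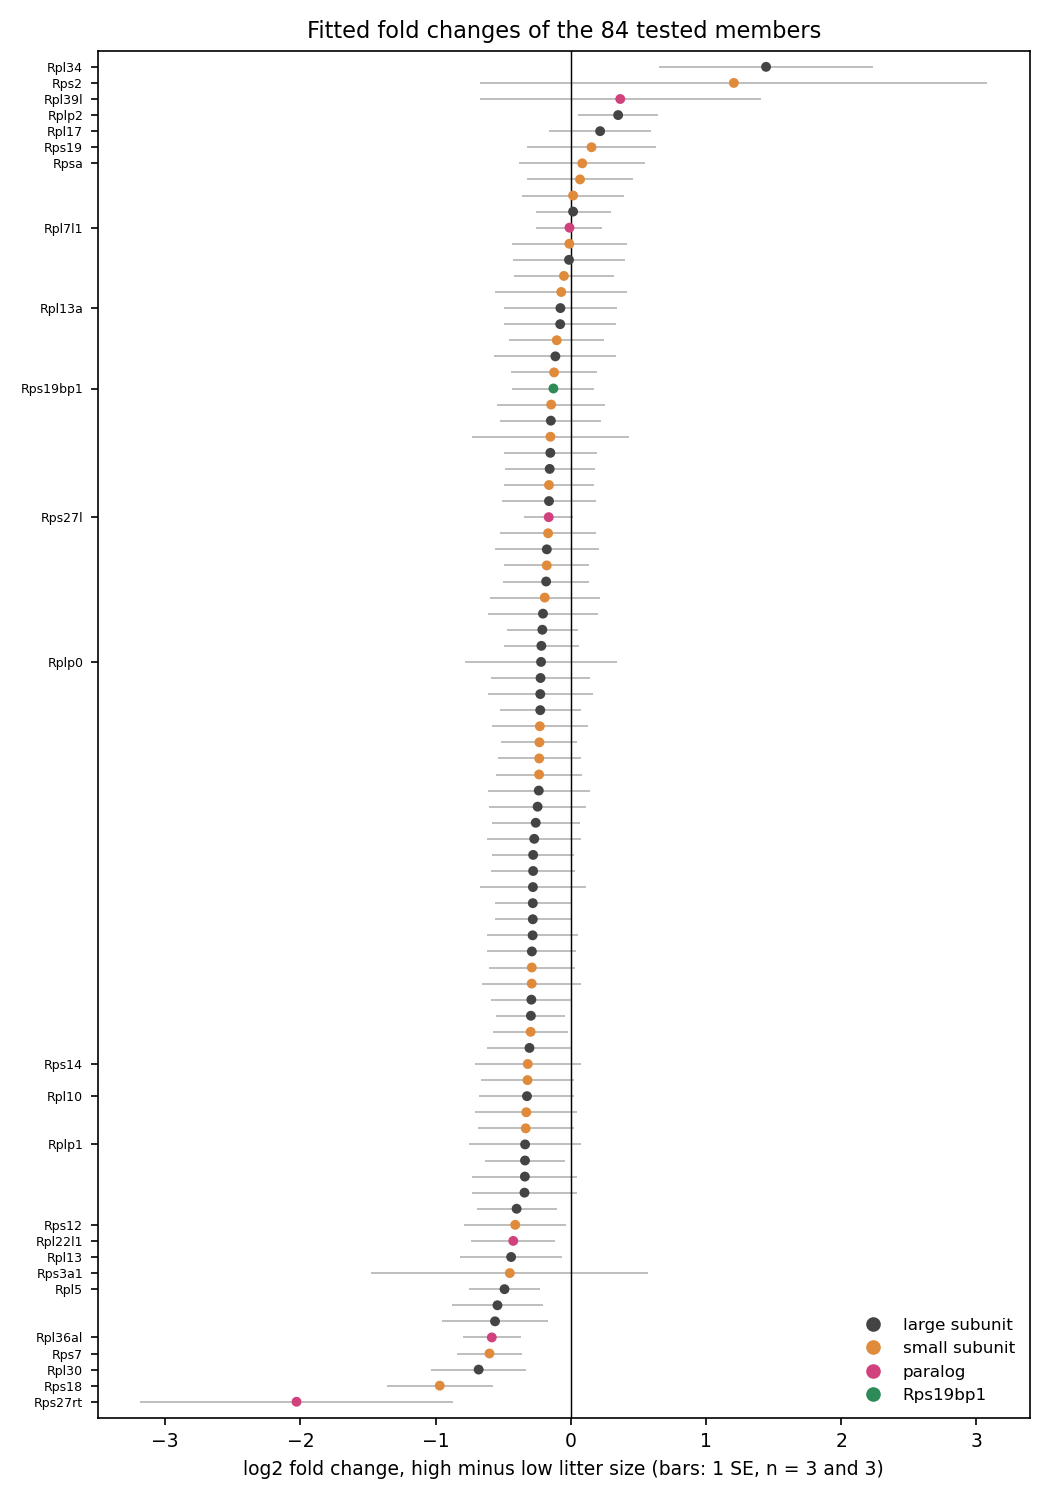
Fitted log2 fold change, high minus low, of each of the 84 tested genes with bars of 1 SE (n = 3 and 3), coloured by subunit or class, with labels on the members named by rule and on Rpl10. The points cluster near the median of -0.23, 67 of 84 lie within 1 SE of 0, and the widest bars belong to Rps2, Rps27rt, Rpl39l and Rps3a1.

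Summing each member with its copies narrowed the spread among the standard members. The SD of their log2 fold changes was 0.31 on the genes' own rows and 0.17 on the sums, and the values ran from -0.97 to 1.44 on own rows and from -0.57 to 0.54 on sums. The number of negative values was 74 either way, and the median was -0.21 on sums. Rpsa and Rps20 changed sign, and 7 members moved by over 0.2. Rps2 went from 1.21 (SE 1.88) to 0.01 (SE 0.45), Rpl34 from 1.44 (SE 0.79) to 0.54 (SE 0.31), Rps18 from -0.97 (SE 0.39) to -0.26 (SE 0.41) and Rps7 from -0.60 (SE 0.24) to -0.19 (SE 0.39). No member passed the test on sums (0 called by edgeR, and 1, Rpl36al, at an unadjusted p under 0.05).

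**Figure D5:**
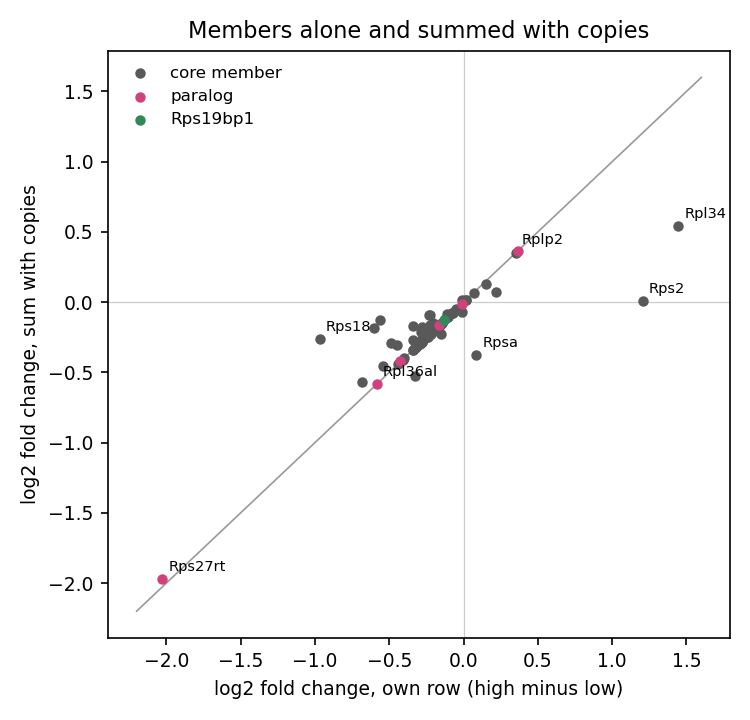
Log2 fold change, high minus low, of each tested gene on its own row (horizontal) and on its sum with sequence copies (vertical), with the line of equal values. Rps2, Rpl34 and Rps18 lie far from the line and toward 0 on the vertical axis, Rpsa crosses 0, and Rpl36al, Rplp2 and Rps27rt stay on it or near it.

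Non-overlapping groups were no more frequent than among all genes. All 3 high libraries lay below all 3 low libraries for 5 of 84 members (Rpl30, Rpl36al, Rpl5, Rps27rt and Rps7), where 10.8% of all genes did, and above them for 0, where 8.75% did. On sums with copies 2 remained, Rpl36al and Rps27rt. Their parent genes, Rpl36a and Rps27, are members and so are not part of these sums. The sums therefore cannot show whether counts were divided between these paralogs and their parents. Rpl36al, a retroposed copy of the large-subunit gene Rpl36a that keeps a coding sequence (ENSMUSG00000049751, chr12:69182731-69184083), had 104, 82.2 and 88.4 CPM in high 1, high 3 and high 4 and 135, 113 and 164 CPM in low 1, low 2 and low 5. Each low library was above each high library, with means of 91.6 ± 11.4 and 137 ± 25.7 CPM (SD, n = 3). Its log2 fold change was -0.58 (SE 0.22, edgeR adjusted p = 0.314), and from -0.71 to -0.44 with 1 library left out. Its copies held almost none of the counts, since the gene had 99.96% of the total. Rpl36a is itself a member and was not among those copies. The share therefore says nothing on counts divided between Rpl36al and Rpl36a. All of the 31-base words of the Rpl36al coding sequence also occur in other transcripts.

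Rps7, a small-subunit protein that can bind Mdm2, had 54.8, 31.4 and 42.5 CPM in the high and 61.5, 64.6 and 69.2 CPM in low 1, low 2 and low 5. The groups did not overlap on this row (log2 fold change -0.60, SE 0.24, edgeR adjusted p = 0.334). On the sum with copies they overlapped, with 351, 133 and 295 CPM against 238, 298 and 349 CPM, the low value being high 3.

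Rps18 had 16.5, 9.30 and 7.29 CPM in the high and 28.8, 19.995 and 15.9 CPM in the low libraries. High 1 lay above low 5, and the log2 fold change was -0.97 (SE 0.39, edgeR adjusted p = 0.336). Its sum with copies was 723, 302 and 425 CPM against 490, 459 and 791 CPM, with high 1 and low 5 highest.

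Rpl30, a large-subunit protein that regulates the splicing of its own transcript in yeast, had 288, 173 and 304 CPM in the high and 334, 322 and 571 CPM in the low libraries. Low 5 stood well above the rest (log2 fold change -0.68, SE 0.35, edgeR adjusted p = 0.432, and -0.36 without low 5). Adding the copies raised high 1 to 333.5 CPM, above low 2 at 322.0 CPM, so that the groups overlapped. Rpl5 had 31.4, 18.5 and 30.0 CPM against 42.2, 38.4 and 31.6 CPM (log2 fold change -0.49, SE 0.26, edgeR adjusted p = 0.445), and on the sum 882, 421 and 794 CPM against 737, 894 and 929 CPM, which overlapped.

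Among members with positive values, Rpl34 had 32.9, 214 and 28.2 CPM in the high and 32.9, 28.7 and 39.3 CPM in the low libraries. Only high 3 stood apart, and the log2 fold change of 1.44 (SE 0.79, edgeR adjusted p = 0.458) became -0.14 without it. On the sum with copies high 3 was still the highest library, at 214 CPM against 134 and 123 CPM in high 1 and high 4 and 88.8, 94.7 and 141 CPM in the low group, so Rpl34 was not among the 63 members that were lowest in high 3 on sums. Rps2 had a log2 fold change of 1.21 on its own row (edgeR adjusted p = 0.808), and 7.62 without low 2.

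The stalk of the large subunit, formed by Rplp0 and dimers of the acidic proteins Rplp1 and Rplp2, recruits elongation factors. Rplp0 had 1410, 574 and 531 CPM in high 1, high 3 and high 4 and 630, 687 and 1612 CPM in low 1, low 2 and low 5. High 1 and low 5 were more than 2-fold above the other 4 libraries (log2 fold change -0.22, SE 0.56, edgeR adjusted p = 0.887). Rplp1 had 1076, 498 and 729 CPM against 877, 701 and 1333 CPM, with high 3 lowest and low 5 highest (log2 fold change -0.34, SE 0.41, edgeR adjusted p = 0.751). Rplp2 departed from its partner, with 251, 292 and 169 CPM in the high and 175, 149 and 234 CPM in the low libraries, so that high 3 was its highest library and low 2 its lowest. Its log2 fold change was 0.35 (SE 0.29, edgeR adjusted p = 0.633), it was positive with each library left out in turn (0.17 to 0.55), and the row held 98.4% of the total with its copies. The difference in pattern between Rplp1 and Rplp2 was not tested.

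Rpsa had 485, 436 and 711 CPM in the high and 364, 305 and 869 CPM in the low libraries, with low 5 and high 4 highest (log2 fold change 0.08, SE 0.47, edgeR adjusted p = 0.949). On the sum with copies it had 1048, 644 and 716 CPM against 866, 901 and 1363 CPM, high 3 being the lowest, and the log2 fold change was -0.38 (SE 0.35, edgeR adjusted p = 0.659). Rps3a1 had 1012, 90.0 and 840 CPM against 147, 1111 and 1396 CPM (log2 fold change -0.45, SE 1.03, edgeR adjusted p = 0.871), and on the sum 1167, 430 and 901 CPM against 580, 1114 and 1398 CPM (-0.31, SE 0.50).

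Per kilobase of transcript, the 5 highest members were Rplp1 (1742 CPM per kilobase, mean of 6 libraries), Rps12 (1417), Rpl13a (1178), Rpl13 (1074) and Rps14 (1035). The length was that of a single annotated transcript per gene, and the ranking depends on that choice. For Rps15a it was 5130 bases, with a coding sequence of 393 bases, which gave 95.8 CPM per kilobase. Rpl13a, which in interferon-treated myeloid cells leaves the ribosome to repress translation, had 1720, 1041 and 842 CPM in the high and 961, 1103 and 1736 CPM in the low libraries, and its log2 fold change was -0.08 (SE 0.42, edgeR adjusted p = 0.949). Rpl13 had 1063, 461 and 609 CPM against 948, 917 and 1030 CPM (-0.44, SE 0.38, edgeR adjusted p = 0.636). In Rpl13 the 3 low libraries lay close together and high 3 and high 4 below them, with high 1 above. Rps12 (-0.41, SE 0.38) and Rps14 (-0.32, SE 0.39), the latter lost in the human 5q- syndrome, gave similar values, lowest in high 3 (380 and 430 CPM). With copies added, Rpl10, a late-loading protein needed before the subunits can join, went from 614 to 1127 CPM per kilobase. Rpl10 was chosen after its values were seen, and its copy Rpl10-ps3, with the same coding sequence, held most of the rest.

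Rps19, mutated in Diamond-Blackfan anaemia, had 569, 299 and 254 CPM in the high and 261, 208 and 539 CPM in the low libraries. High 1 and low 5 were again the highest (log2 fold change 0.15, SE 0.48, edgeR adjusted p = 0.909). Rpl17, at the exit of the peptide tunnel, had 586, 289 and 391 CPM against 350, 253 and 486 CPM (0.22, SE 0.37, edgeR adjusted p = 0.827), with high 1 and low 5 highest and low 2 lowest.

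The paralogs differed widely in level. Rpl22l1, a paralog of Rpl22, had 122, 61.4 and 104 CPM in the high and 109, 114 and 162 CPM in the low libraries, with high 3 lowest and low 5 highest (log2 fold change -0.43, SE 0.31, edgeR adjusted p = 0.576). Rpl7l1, linked to assembly of the large subunit, was flatter, with 100.1, 96.7 and 83.7 CPM against 102, 66.5 and 114 CPM (-0.01, SE 0.24). Rps27l, a paralog of Rps27 that p53 induces, had 48.3, 52.5 and 61.8 CPM against 58.3, 56.9 and 66.8 CPM (-0.16, SE 0.18), and high 3 was not its lowest library. Rps19bp1, the binding protein, had 11.9, 15.6 and 8.35 CPM against 14.5, 11.4 and 13.3 CPM, highest in high 3 (-0.13, SE 0.30).

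Of the testis-expressed paralogs, Rpl10l and Rpl39l were close to absent and Rpl3l, a paralog of heart and skeletal muscle, was too. Rpl10l had 2, 10 and 5 counts in the high and 2, 7 and 6 in the low libraries, and Rpl3l had 3, 3 and 5 against 6, 9 and 1. Neither passed the filter on low counts, so 84 of 86 members were tested. Rpl39l had 6, 12 and 11 counts against 0, 15 and 11 (log2 fold change 0.37, SE 1.04, edgeR adjusted p = 0.9). Rps27rt, a retrogene of Rps27 (chr9:114982366-114982739), had 35, 0 and 7 counts in the high and 63, 45 and 73 in the low libraries. Each low library was above each high library, and the log2 fold change of -2.03 (SE 1.16) was the lowest of all members, with an edgeR adjusted p of 0.473.

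The starts of ribosomal protein genes were read from RefSeq's promoter windows (GRCm38.p6, 250 bases before to 50 after the start), which held 66 of the 86 members. A run of at least 8 pyrimidines (C or T) lay over the annotated start in 18 of the 66 (27.3%) and in 6.30% of all 27025 genes with a window. Printed as examples are Rpl34, Rps18, Rplp2 and Rps24, which are named above, with Rpl7a, which had the longest run, and Rpl27a. Each line gives 15 bases before and 15 from the start on, on the gene's strand, with the pyrimidine run in capitals. In Rpl27a and Rpl34 the run is 20 bases long and goes past the end of the printed stretch. They lie at chr2:26910792-26910821 (Rpl7a, plus), chr7:109519180-109519209 (Rpl27a, plus), chr3:130730323-130730352 (Rpl34, minus), chr17:33955651-33955680 (Rps18, minus), chr7:141447636-141447665 (Rplp2, plus) and chr14:24490663-24490692 (Rps24, plus).
Rpl7a: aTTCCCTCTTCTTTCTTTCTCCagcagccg
Rpl27a: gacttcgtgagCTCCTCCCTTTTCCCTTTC
Rpl34: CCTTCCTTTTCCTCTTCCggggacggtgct
Rps18: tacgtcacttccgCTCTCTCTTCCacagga
Rplp2: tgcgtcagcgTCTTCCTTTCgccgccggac
Rps24: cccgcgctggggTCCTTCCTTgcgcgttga

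Other short motifs were counted in the same windows on both strands. CCGGAAG, the core bound by ETS factors such as GABP, was in 26 of 66 members (39.4%) and 9.93% of all genes. CTTTCC was in 36 (54.5%) and 29.3%, and since it is made of pyrimidines it can overlap a pyrimidine run, which was not separated. AAGATGGCG, part of the YY1 motif, was in 4 (6.06%) and 1.64%, and TATAAA in 7 (10.6%) and 15.7%. Rplp2 and Rpl34, the members whose levels followed the others least on sums among the standard ribosomal proteins, both have the pyrimidine run. So do Rps6 and Rps10, which followed the others closely on sums (r = 0.98 each). A link between the run and the levels was not tested. A match describes letters in a window and not a bound site, and the motifs were chosen with the results known.

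No gene of the wider ribosome and translation machinery, in the 7 lists followed, passed the test over all genes. Fau, a ribosomal protein made as a fusion with a ubiquitin-like protein, had a log2 fold change of -0.29, and Rack1, a scaffold on the head of the small subunit, had -0.27. Rack1 had 1011, 479 and 800 CPM in the high and 786, 904 and 1081 CPM in the low libraries, with high 3 lowest and low 5 highest as for most members.

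Of 20 elongation and initiation genes with TOP mRNAs, 16 had negative and 4 positive log2 fold changes, with a median of -0.15. Btf3, part of the nascent polypeptide-associated complex, had -0.34 (edgeR adjusted p = 0.604) and Nap1l1, a histone chaperone, 0.35 (0.599). Of 42 ribosome biogenesis genes 36 were negative and 6 positive (median -0.23), and 7 were lower in the high group at an unadjusted p under 0.05, where 7.82% of all genes were. Tsr1, a factor of small-subunit maturation, had 68.6, 53.7 and 52.8 CPM in the high and 97.2, 85.1 and 92.4 CPM in the low libraries. Those groups did not overlap (log2 fold change -0.65, SE 0.19, edgeR adjusted p = 0.237). Tsr2, the escort of Rps26, had 0.33 (edgeR adjusted p = 0.525).

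Genes of rRNA transcription were split, with 7 of 12 negative and a median of -0.05. Polr1a, the large subunit of RNA polymerase I, had 0.42 (edgeR adjusted p = 0.414), and Taf1a, a factor of its promoter complex, -0.54 (0.43). Of 22 genes of mTOR and TOP control, 13 were positive and 9 negative, with a median of 0.07, as for all genes after rounding. Eif4ebp1, the translation repressor that mTOR inactivates, had 56.0, 144 and 40.7 CPM in the high and 22.5, 42.4 and 35.3 CPM in the low libraries. High 3, the library of lowest ribosomal protein levels and of the highest adipocyte sum, was its highest. A link among these values was not tested. For Eif4ebp1, high 4 lay below low 2 (log2 fold change 1.26, SE 0.51, edgeR adjusted p = 0.337). Eif4a1, the initiation helicase, had -0.50 (edgeR adjusted p = 0.43).

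Of 10 genes of the Myc and p53 response, 6 were positive and 4 negative. Mycn, a Myc family activator of ribosomal genes, had 1.28, 5.93 and 17.6 CPM in the high and 51.7, 60.4 and 24.0 CPM in the low libraries, with no overlap (log2 fold change -2.45, SE 0.88, edgeR adjusted p = 0.307). Phlda3, a p53 target, had 59.3, 145 and 29.7 CPM against 29.6, 36.2 and 26.7 CPM, highest in high 3 (1.34, SE 0.55, edgeR adjusted p = 0.34). The mitochondrial ribosomal proteins, which build the separate ribosome of mitochondria, had the other sign, with a median of 0.18. Of 78, 55 were positive and 23 negative, where 55.3% of all genes were positive. Their summed level was 1899, 3313 and 1875 CPM in the high and 2062, 1988 and 2245 CPM in the low libraries. Only high 3 stood above the low libraries, and high 1 and high 4 were the lowest. Mrpl47 had 0.53 (edgeR adjusted p = 0.393) and Mrpl52 -0.40 (0.446). The difference between the cytosolic and mitochondrial lists was not tested.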

How the data were processed

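RNA-seq of 3 high and 3 low litter size ovary samples was used, with groups from the labelled litter size and replicate numbers from the titles. The authors deposited estimated counts per gene. The GRCm38 build, Trim Galore, DESeq2 and kallisto are named in the submitters' processing notes, and the annotation release and versions are not given in the sources used here. The deposited values are whole numbers, and their rounding is not stated. kallisto divides reads among similar transcripts, so paralogs and pseudogenes are uncertain.

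Symbols, coordinates and coding sequences came from GENCODE M21 (GRCm38), which matched 35869 of 36727 genes. Genes were filtered with filterByExpr (minimum count 10, minimum total 15), scaled by TMM and compared with edgeR 4.0.16 (quasi-likelihood F test, R 4.3.3), with Benjamini-Hochberg adjustment over all genes and a threshold of 0.05. The biological coefficient of variation was 46.8%. Shares were compared with exact permutation tests (scipy 1.17.1). The code was tested on simulated counts. Total counts per library set the precision, and 1 count was worth 0.0390 to 0.0624 CPM. Sequence copies were found with blastn 2.17.0 on the same strand and given to the best-matching member.

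Members and lists were chosen with earlier results of these data known. Named members were, by a written rule, the 6 of smallest p in each direction, the 5 highest per kilobase, the paralogs and Rps19bp1, the stalk genes with Rpsa, and the 3 of widest range within a group, and in each list the gene of smallest p in each direction, except for results that are not shown here. Alternatives were DESeq2 1.42.0, limma voom 3.58.1, the edgeR likelihood ratio test, other scalings and filters, and each library left out. Sums with copies and the removal of 3 libraries were added after the data were seen.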

Additional observations from a re-analysis of the deposited data

How the results depend on the processing

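No ribosomal protein gene passed the test under any of the settings run. For all genes, edgeR called 1, DESeq2 called 1017, limma voom 3, the edgeR likelihood ratio test 631, library size alone 2 and scaling by the summed members 0. Leaving out 1 library gave 0 to 1. Removing high 1, high 3 and low 2 leaves high 4 alone and assumes that it varies like the low group. The median log2 fold change of members was then -0.50, with 78 of 84 negative, and the difference in the share of counts was -0.67 percentage points. The median log2 fold change of members stayed negative, from -0.51 to -0.03 with 1 library left out. The difference in the share of counts ran from -1.05 to 0.247 with 1 library left out, and was 0.247 without high 3 and 0.169 without low 5. The difference in the log2 ratio of large to small subunit stayed negative, from -0.09 to -0.02. Among 239 values of 24 named members under 10 other settings, 6 changed sign and 0 passed. Scaling by the summed members gave 0.15 for Rpl13a, 0.26 for Rpl7l1, 0.16 for Rps19bp1 and 0.12 for Rps27l, limma voom gave 0.027 for Rpl7l1, and sums with copies -0.38 for Rpsa. The cause was not tested. With 1 library left out, 19 of 144 values changed sign. The log2 fold changes ran from -0.45 to 0.22 for Rpl13a, -0.11 to 0.48 for Rpl17, -0.14 to 1.83 for Rpl34, -0.19 to 1.22 for Rpl39l, -0.21 to 0.15 for Rpl7l1, -0.84 to 0.35 for Rplp0, -0.30 to 0.67 for Rps19, -0.37 to 0.043 for Rps19bp1, -0.95 to 0.066 for Rps3a1 and -0.19 to 0.70 for Rpsa. No paired analysis was possible because only number 1 occurs in both groups. With 3 samples a group the exact test cannot give a p under 0.1, and low counts limit Rpl10l, Rpl39l and Rpl3l.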
